A study of Mus musculus with 5 samples.

Results

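Transcripts of 6 TNF receptor superfamily genes (Tnfrsf4, Tnfrsf9, Tnfrsf18, Tnfrsf1b, Cd27 and Fas) and of 4 genes for proteins that act below these receptors (Traf1, Traf2, Tnfaip3 and Birc3) were followed in cultured mouse CD8 T cells. The genes were taken by name, and all 13 probe sets annotated to them were read. They are 10 of the 8251 genes named on the array, and 9 of them, with 10 probe sets, passed a filter on low signal that 5610 genes passed. The cells came from C57BL/6 mice with the OT-1 TCR transgene, 6 to 8 weeks old, whose T cells carry a receptor for a peptide of ovalbumin. CD44lo CD8+ cells were enriched from their lymph nodes by removing other cells and were cultured with latex microspheres that displayed the peptide in its MHC molecule together with B7-1, a ligand of the costimulatory receptor CD28. Every culture contained human IL-2. Murine IL-21, a cytokine that activates STAT3, was added in 2 of the 3 groups, which were 72 h with IL-21 (1 array), 48 h with IL-21 (2 arrays) and 48 h without IL-21 (2 arrays). The labels call the samples biological replicates and do not say whether separate mice or cultures were used. The p-values therefore cover no more than the spread among these arrays, which may be technical. No culture lacking IL-21 was read at 72 h, so the comparison over time cannot be told apart from longer exposure to IL-21.

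Receptors of the TNF superfamily are brought together in trimers by their ligands. Most of them then recruit TRAF adaptor proteins, which carry the ubiquitin ligases cIAP1 and cIAP2 and lead to the activation of NF-kappaB transcription factors, while Fas carries a death domain that binds FADD and activates caspase-8. In CD8 T cells the antigen receptor induces OX40 (Tnfrsf4), GITR (Tnfrsf18) and 4-1BB (Tnfrsf9), whereas CD27 is already present on naive cells, and all of these act as costimulatory receptors that support survival and expansion. A20, the product of Tnfaip3, is a ubiquitin-editing enzyme that restrains NF-kappaB signalling and is itself encoded by an NF-kappaB target gene.

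The deposited signals differed in overall level, with a trimmed mean of 65.9 on the 72 h array, 105 and 106 on the 48 h arrays with IL-21, and 75.4 and 65.3 on the 48 h arrays without it. All values below are therefore quantile-normalised signals, in which an offset of 1.53 signal units is included, and differences are on the log2 scale of these values. Cd8a was measured on all 5 arrays, with 506 at 72 h, 690 and 753 at 48 h with IL-21, and 414 and 401 at 48 h without it. The summed signal of 6 CD8 T cell markers was 9462 at 72 h, 6028 and 9192 at 48 h with IL-21, and 4795 and 6471 without it. For 6 markers of CD4 and regulatory T cells, which can carry high levels of these receptors, it was 104, then 62.4 and 55.7, then 101 and 71.7 in the same groups, and 3 of the 6 lay below the filter. For 8 B cell markers it was 1247, then 749 and 601, then 783 and 507, for 16 myeloid and dendritic cell markers 473, then 459 and 348, then 505 and 411, and for 5 NK cell markers 302, then 55.7 and 106, then 59.3 and 85.7. For 7 erythroid, platelet and stromal markers it was 342, then 327 and 239, then 322 and 303. Bright single genes made up much of some sums. At 72 h Gzmb had 3717 in the CD8 list, Ighm 868 in the B cell list and Klrc1 253 in the NK list. Of markers that define other cells, Cd4 had 32.6 at 72 h, 15.9 and 9.38 at 48 h with IL-21, and 15.6 and 12.8 without it, while Cd40lg (CD4 T cells), Lyz2 (myeloid cells) and Ncr1 (NK cells) lay below the filter, which stands at a signal of 13. Other markers passed the filter, and 2 of those for other cells were called higher at 72 h in limma. H2-Ab1, an MHC class II gene, had 140 at 72 h, against 60.2 and 58.1 at 48 h with IL-21 (adjusted p = 0.0256), and Cd37, a tetraspanin read in the B cell list, had 254 against 70.9 and 93.9 (adjusted p = 0.0176). Itgax and Cd68 of the myeloid list and Klrc1 of the NK list were also higher at 72 h and did not pass. Of the 9 myeloid markers past the filter, 3 were higher at 72 h and 6 were lower, with a median of -0.37. Among the lower ones were H2-Eb1 (-0.78), also an MHC class II gene, and Cd74 (-0.37). Of the 6 B cell markers past the filter, 4 were higher at 72 h and 2 were lower, with a median of 0.42. Beside Cd37, Ighm (0.88), Cd79b (0.75) and Pax5 (0.09) were higher and not called, while Cd79a (-0.02) and Ms4a1 (-0.22) were lower. Of the 6 CD8 T cell markers, 5 were higher at 72 h and 1, Cd8a, was lower (-0.51). In limma Cd3d (1.40, adjusted p = 0.00983) and Cd3g (1.78, adjusted p = 0.00928) were called higher. Of all tested probe sets 4.04% were called higher at 72 h. The part of other cells in the results below was not tested, and fewer cells of a type and less RNA per cell cannot be told apart in such bulk samples.

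Between 48 and 72 h with IL-21, the transcripts for the signalling proteins TRAF1 and A20 rose, by 2.57-fold and 3.51-fold. Leaving out either 48 h array with IL-21 cannot test these 2 calls, since no probe set of the whole array passed then. Without replicate 1 or replicate 2 the differences were 1.32 or 1.39 for Traf1 and 2.06 or 1.54 for Tnfaip3. Cd27 was 2.44-fold and 2.53-fold higher by its 2 probe sets and narrowly missed the threshold. Tnfrsf4 and Tnfrsf18 had their lowest signal on the 72 h array, at 1.53-fold and 1.35-fold below the 48 h level with IL-21, and did not pass. In unscaled values, where the median of all probe sets was -0.58, both were called lower (-1.32, adjusted p = 0.00234 in limma, and -1.14, adjusted p = 0.00333). Of the 7453 tested probe sets 2027 were called lower in that fit. After centring on control transcripts, where the median of all probe sets was 0.33, Tnfrsf4 and Tnfrsf18 differed by -0.41 and -0.23 and did not pass. Adding IL-21 at 48 h gave no call for any member, and the largest difference among the tested probe sets was that of Tnfaip3, which was 1.49-fold lower with IL-21. In limma, 2 of the 9 member genes that passed the filter were called at 72 h at an adjusted p under 0.05, both higher, where 11.2% of the 7453 tested probe sets were called, 4.04% higher and 7.12% lower. With so few members this share cannot be set apart from the background. At 48 h, 0 of 9 member genes were called, where 0% of all probe sets were. An unadjusted p under 0.05 was reached by 1 of 10 member probe sets at 48 h, against 4.39% of all probe sets, and by 7 of 10 at 72 h, against 27.3%. The 72 h values rest on 1 array, which the fit assumes to vary like the 48 h groups, and both comparisons share the 48 h arrays with IL-21.

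**Figure D1:**
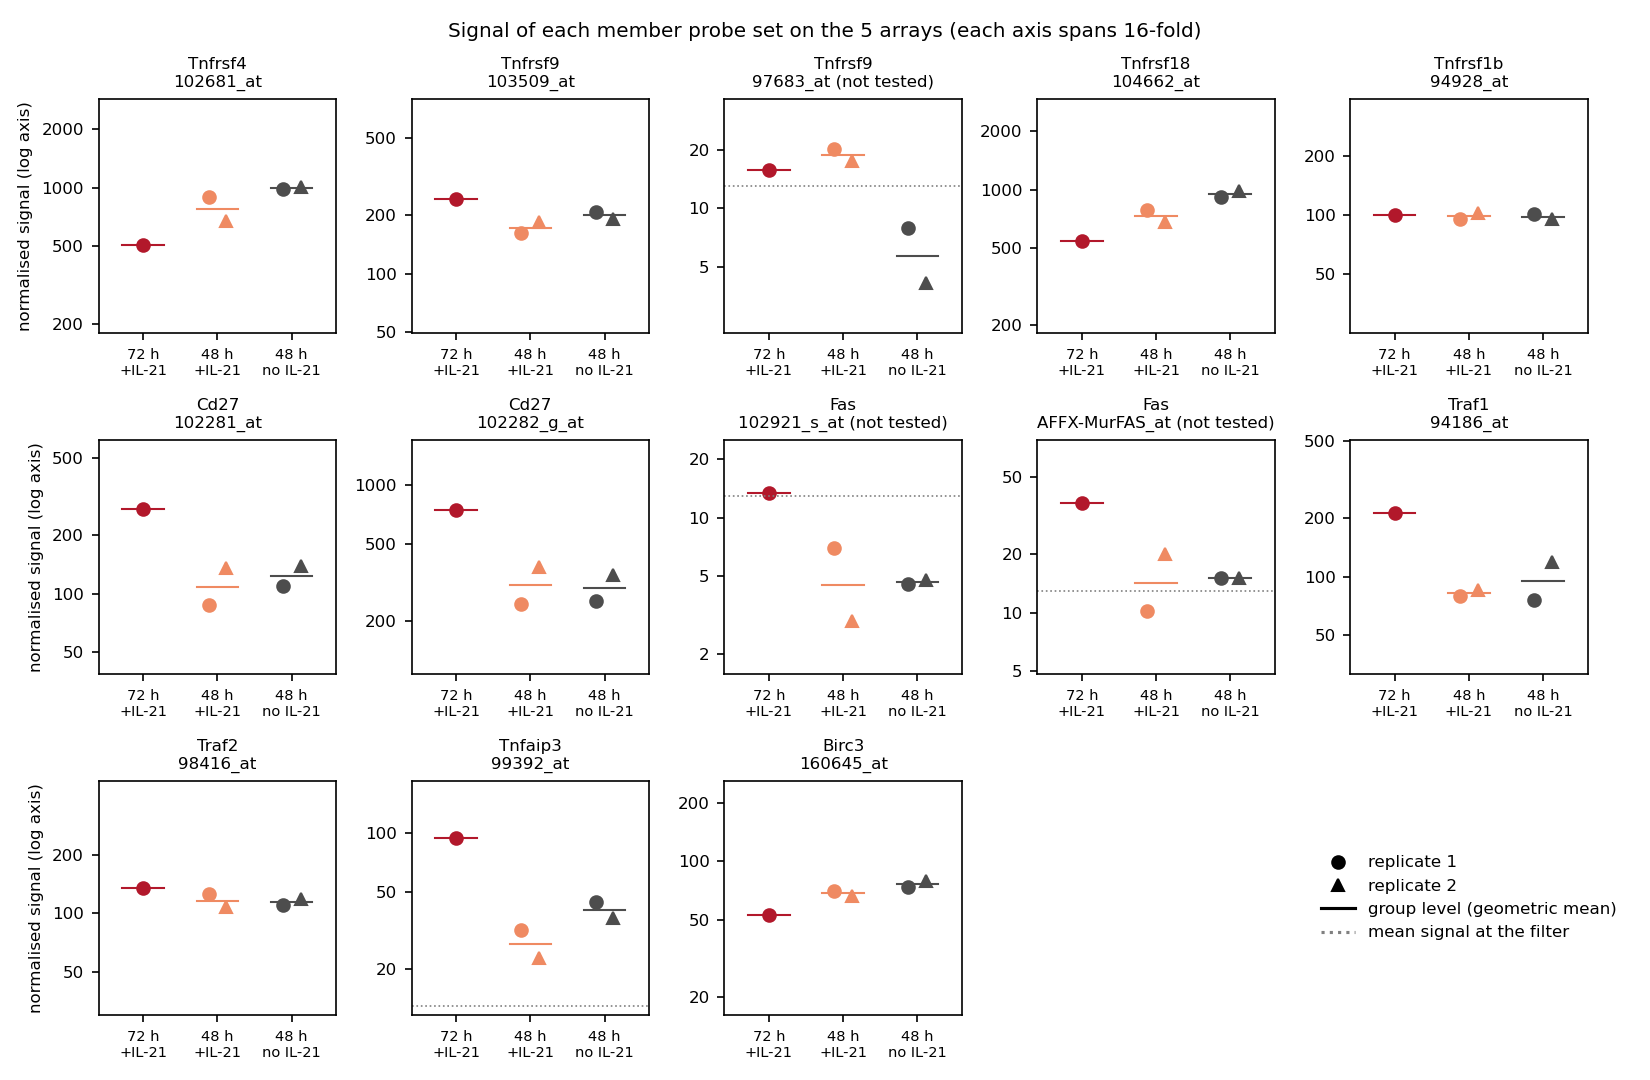
Normalised signal of the 13 member probe sets on the 5 arrays, on log axes that each span 16-fold, with circles for replicate 1, triangles for replicate 2 and horizontal lines for the group level. The 72 h array lies above all 4 arrays at 48 h for Cd27, Fas, Traf1, Traf2, Tnfaip3 and the tested probe set of Tnfrsf9, and below them for Tnfrsf4, Tnfrsf18 and Birc3.

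By position alone, the 72 h array lay outside all 4 arrays at 48 h for 9 of the 10 tested member probe sets, 6 above and 3 below. This occurred for 64.2% of all tested probe sets, with 30.4% above and 33.8% below. The 2 groups at 48 h did not overlap for 5 of the 10 member probe sets, those of Tnfrsf4, Tnfrsf9, Tnfrsf18, Tnfaip3 and Birc3, and in all 5 the IL-21 arrays were lower, although in unscaled values Tnfrsf4 (0.25), Tnfrsf9 (0.35), Tnfrsf18 (0.22) and Birc3 (0.41) had positive differences below the median of all probe sets at 0.57. Among all probe sets 33.8% did not overlap and 17.9% were lower with IL-21. By sign, 7 of 10 member probe sets were lower with IL-21 at 48 h, against 51.2% of all, and 3 of 10 were lower at 72 h, against 50.7% of all. The median difference over the 9 member genes was -0.20 at 48 h and 0.21 at 72 h, while over all probe sets it was -0.01 in both comparisons. The 2 replicates of a group differed by a median of 0.23 with IL-21 and 0.12 without it over the member probe sets, against 0.26 and 0.24 over all, on the log2 scale.

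Tnfrsf4, which encodes OX40, had a signal of 508 at 72 h, 898 and 670 at 48 h with IL-21, and 983 and 1005 at 48 h without IL-21. The IL-21 arrays were both below the arrays without IL-21, and the 72 h array was the lowest of all. The difference was -0.61 (SE 0.20) at 72 h, with an adjusted p = 0.112 in limma, and -0.36 (SE 0.16) for IL-21 at 48 h, with an adjusted p = 0.967. Tnfrsf18, which encodes GITR, lies beside Tnfrsf4 on chromosome 4, with 0 protein-coding genes between them in the GRCm38.p6 gene table, and it showed the same order of groups. Its signal was 543 at 72 h, 789 and 677 at 48 h with IL-21, and 912 and 986 without it. The difference was -0.43 (SE 0.16) at 72 h, with an adjusted p = 0.149, and -0.38 (SE 0.13) for IL-21 at 48 h, with an unadjusted p = 0.0275 and an adjusted p = 0.967 in limma. Tnfrsf18 was thus the single member with an unadjusted p under 0.05 at 48 h. Between replicates Tnfrsf4 differed by -0.42 with IL-21 and 0.03 without it, and Tnfrsf18 by -0.22 and 0.11, so the differences for IL-21 were no larger than the spread between the 2 IL-21 arrays for Tnfrsf4. Taken within the same replicate number, the difference for IL-21 was -0.13 and -0.58 for Tnfrsf4 and -0.21 and -0.54 for Tnfrsf18.

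Tnfrsf9, which encodes 4-1BB, had 2 probe sets that went apart. Probe set 103509_at had a signal of 243 at 72 h, 161 and 183 at 48 h with IL-21, and 208 and 192 without it. This probe set was highest on the 72 h array and lowest on the 48 h arrays with IL-21, with a difference of 0.50 (SE 0.20, adjusted p = 0.173 in limma) at 72 h and -0.21 (SE 0.16, adjusted p = 0.985) for IL-21. Probe set 97683_at was dim, with 15.7 at 72 h, 20.2 and 17.5 at 48 h with IL-21, and 7.92 and 4.11 without it, and its mean lay below the filter. By this dim probe set Tnfrsf9 was 1.72 higher with IL-21 at 48 h (SE 0.50, unadjusted p = 0.0135 and adjusted p = 0.887 in limma without a filter) and -0.26 at 72 h. The probe sets thus had opposite signs in both comparisons, and the direction for Tnfrsf9 is uncertain.

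Cd27 encodes a receptor of naive and memory T cells that binds CD70. Its probe set 102282_g_at had a signal of 745 at 72 h, 245 and 381 at 48 h with IL-21, and 253 and 344 without it. Probe set 102281_at had 274 at 72 h, 87.3 and 135 at 48 h with IL-21, and 110 and 138 without it. Both had their highest signal on the 72 h array, and both overlapped between the 2 groups at 48 h. The difference at 72 h was 1.29 (SE 0.32, adjusted p = 0.0539 in limma) and 1.34 (SE 0.32, adjusted p = 0.0502), which is outside the threshold of 0.05. With a stricter filter, at the 60th percentile, 102282_g_at and 102281_at had an adjusted p = 0.0493 and 0.0428. They also passed with a larger offset of 16 (0.0492 and 0.0437) and after centring on control transcripts (0.00144 and 0.00199). In unscaled values neither passed in limma (adjusted p = 0.188 for both). The same held with arrays centred on their medians (0.176 and 0.147) and with no filter (0.0818 and 0.0748). With each 48 h array left out, the differences lay between 0.97 and 1.59 for 102282_g_at and between 1.03 and 1.63 for 102281_at. The 2 probe sets measure the same gene on the same arrays and are not independent. For IL-21 at 48 h Cd27 differed by 0.05 (SE 0.26) and -0.18 (SE 0.26), with 95% intervals of -0.58 to 0.68 and -0.82 to 0.45. The second replicate was higher than the first in both groups, by 0.63 with IL-21 and 0.44 without it for 102282_g_at, so Cd27 differed more between replicate numbers than between the groups at 48 h.

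Fas, the death receptor that removes activated T cells, was dim by one of its probe sets. Probe set 102921_s_at had a signal of 13.4 at 72 h, 6.98 and 2.95 at 48 h with IL-21, and 4.56 and 4.81 without it, and it did not pass the filter. A further probe set for Fas belongs to the control probe sets of the array, lay above the signal of the filter on average, and had 36.9 at 72 h, 10.2 and 20.1 at 48 h with IL-21, and 15.1 and 15.2 without it. Both were highest on the 72 h array, by 1.57 and 1.37 over the 48 h level with IL-21. In a fit with no filter the difference of 102921_s_at had an SE of 0.65 and an adjusted p = 0.263 in limma, and the control probe set was not tested.

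Tnfrsf1b encodes TNFR2, the TNF receptor of activated lymphocytes. Its signal was 99.6 at 72 h, 95.5 and 103 at 48 h with IL-21, and 101 and 95.1 without it, the narrowest range of all members. The difference was 0.01 at 72 h, with a 95% interval of -0.52 to 0.53, and 0.01 for IL-21 at 48 h, with an interval of -0.41 to 0.44.

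Traf1 encodes an adaptor without the RING domain of other TRAF proteins, which binds TRAF2 and is induced by NF-kappaB. It had a signal of 211 at 72 h, 79.7 and 85.0 at 48 h with IL-21, and 75.4 and 119 without it. The 72 h array was above all others, and the 48 h groups overlapped. Traf1 rose by 1.36 at 72 h (SE 0.31, 95% interval 0.60 to 2.12, adjusted p = 0.0458 in limma). For IL-21 at 48 h it differed by -0.20 (SE 0.25, adjusted p = 0.985). Traf2, the adaptor that recruits the cIAP ligases, had 134 at 72 h, 126 and 107 at 48 h with IL-21, and 111 and 119 without it. Its difference was 0.21 at 72 h, with a 95% interval of -0.33 to 0.75, and 0.02 for IL-21, with an interval of -0.42 to 0.46. Birc3, which encodes cIAP2, had 52.9 at 72 h, 70.3 and 66.6 at 48 h with IL-21, and 73.5 and 79.2 without it. It was lowest at 72 h (-0.37, SE 0.23, adjusted p = 0.371 in limma) and lower with IL-21 on both arrays (-0.16, SE 0.19, adjusted p = 0.985). Birc2, its neighbour on chromosome 9, which encodes cIAP1 and was picked out after its values were seen, had 98.6 at 72 h, 52.6 and 61.6 at 48 h with IL-21, and 79.5 and 70.8 without it. Its difference at 72 h was 0.79 (SE 0.25, adjusted p = 0.0985), opposite in sign to that of Birc3.

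Tnfaip3 had a signal of 94.7 at 72 h, 31.9 and 22.9 at 48 h with IL-21, and 44.4 and 36.6 at 48 h without IL-21. The 72 h array stood above all others, and both 48 h arrays with IL-21 stood below both without it. Tnfaip3 rose by 1.81 at 72 h (SE 0.33, 95% interval 1.00 to 2.62, adjusted p = 0.0265 in limma). For IL-21 at 48 h the difference was -0.58 (SE 0.27, 95% interval -1.24 to 0.08), with an unadjusted p = 0.0767 and an adjusted p = 0.967. Within the same replicate number it was -0.48 and -0.68. The summed CD4 and regulatory T cell markers given above had the same order of groups, and their part in the difference was not tested.

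**Figure D2:**
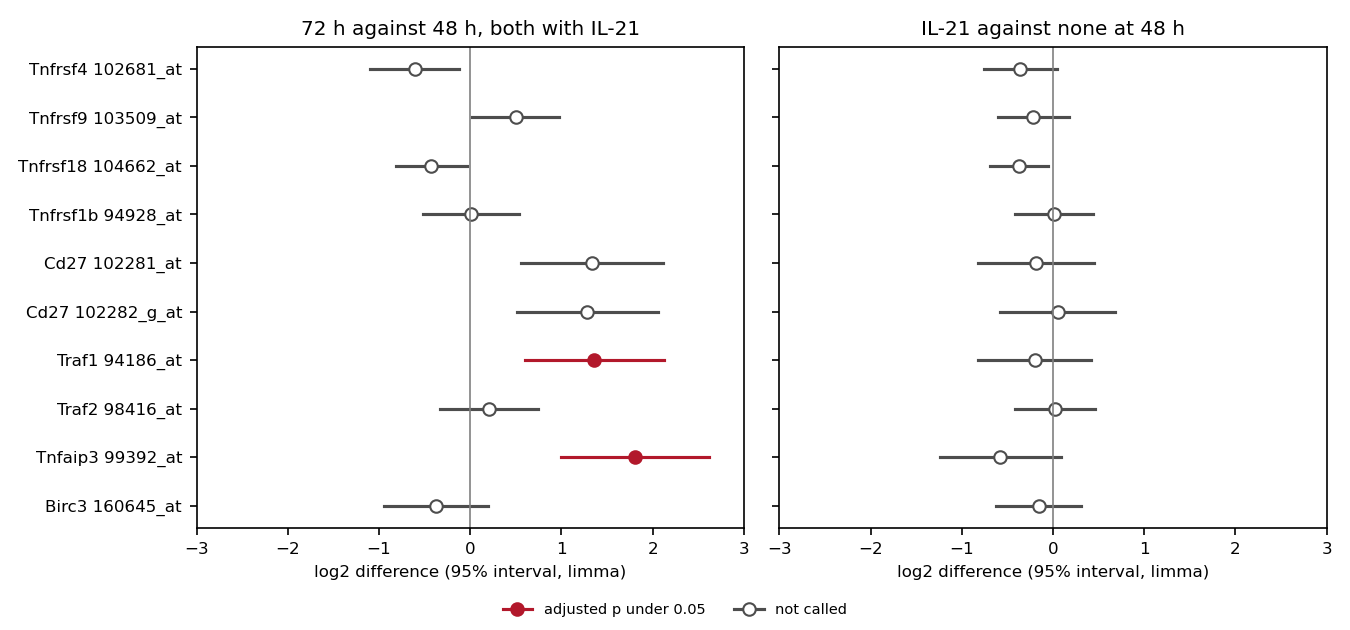
Log2 difference of the 10 tested member probe sets with its 95% interval from limma, at the left for 72 h against 48 h with IL-21 and at the right for IL-21 against none at 48 h. Filled red points mark Traf1 and Tnfaip3, which passed at an adjusted p under 0.05, and all intervals at the right except that of Tnfrsf18 include 0.

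Promoter sequences were read for the members, since A20 and TRAF1 are known NF-kappaB targets and IL-21 acts through STAT3. The RefSeq promoter table (GRCm38.p6) held 12 start sites for the 10 genes, and the 250 bases before each start were searched on both strands for the kappaB consensus and for the STAT motif TTCNNNGAA. The kappaB consensus was found at 2 of the 12 start sites, in Tnfaip3 and at the second start of Tnfrsf9, and it occurs in 7.25% of all 32851 such windows. The STAT motif was found at 4 of 12, in Tnfrsf9 (second start), Tnfrsf18, Tnfrsf1b and Fas, and it occurs in 7.02% of all windows. A match is a description of the letters and not a binding site, and no window of Traf1 or Cd27 held either motif. Some windows, those of Traf1 and Cd27 among them, overlap the annotated gene in part, since the start used lies inside it. The windows of both genes that rose, of the second start of Tnfrsf9 and of Tnfrsf18 are shown 5′ to 3′ on the gene's strand, with matches in capitals. Those of Tnfrsf1b and Fas, which also held the STAT motif, are not shown. Whether any match bears on the differences was not tested. In Tnfaip3 (chr10:19015411-19015660, minus strand) the capitals mark 2 places with the kappaB consensus, at positions -125 to -116 and -12 to -3, counted from the start. Traf1 (chr2:34961773-34962022, minus strand) has no capitals. In the second start of Tnfrsf9 (chr4:150927749-150927998, plus strand) the first capitals mark the STAT motif and the second overlapping matches to the kappaB consensus. In Tnfrsf18 (chr4:156026072-156026321, plus strand) they mark the STAT motif.
Tnfaip3: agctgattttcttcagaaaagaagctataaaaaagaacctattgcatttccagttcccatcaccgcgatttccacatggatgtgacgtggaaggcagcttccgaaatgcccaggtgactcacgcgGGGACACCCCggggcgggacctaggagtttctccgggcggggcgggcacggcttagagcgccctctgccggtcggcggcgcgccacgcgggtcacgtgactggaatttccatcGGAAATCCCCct
Traf1: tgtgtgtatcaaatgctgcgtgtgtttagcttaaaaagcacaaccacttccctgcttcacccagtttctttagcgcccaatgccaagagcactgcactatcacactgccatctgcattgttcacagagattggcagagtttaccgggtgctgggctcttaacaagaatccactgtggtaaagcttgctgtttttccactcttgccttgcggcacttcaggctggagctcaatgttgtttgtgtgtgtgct
Tnfrsf9: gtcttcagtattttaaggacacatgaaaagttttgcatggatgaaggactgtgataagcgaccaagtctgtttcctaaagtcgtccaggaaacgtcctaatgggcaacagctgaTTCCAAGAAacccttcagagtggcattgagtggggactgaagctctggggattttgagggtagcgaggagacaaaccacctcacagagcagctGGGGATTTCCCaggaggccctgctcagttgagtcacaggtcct
Tnfrsf18: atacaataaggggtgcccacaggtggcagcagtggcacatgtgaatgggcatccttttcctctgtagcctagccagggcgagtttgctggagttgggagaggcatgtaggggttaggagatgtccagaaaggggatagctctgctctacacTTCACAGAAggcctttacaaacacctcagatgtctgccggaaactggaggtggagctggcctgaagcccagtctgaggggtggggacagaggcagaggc

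Ligands, other receptors and the proteins below them were read from 6 lists. Some genes, Nfkb2, Relb and Cflar among them, stand in more than 1 list, so the lists are not separate readings. Among the TNF family ligands, 9 of 12 on the array passed the filter. At 72 h 1 was called higher, 2 lower and 6 were not called, with a median of -0.57. Of all tested probe sets 4.04% were called higher and 7.12% lower, and 9 genes are too few to set apart from this background. Ltb, which encodes the membrane anchor of lymphotoxin, rose to 1858 at 72 h, against 813 and 607 at 48 h with IL-21 (1.40, SE 0.20, adjusted p = 0.0151 in limma). Lta, which encodes lymphotoxin alpha, fell to 11.1, against 215 and 103 (-3.74, SE 0.51, adjusted p = 0.0149), although its second probe set had 0.07. Tnf fell to 7.08, against 53.9 and 32.5 (-2.56, SE 0.45, adjusted p = 0.0242). Tnf and, by the brighter of its 2 probe sets, Lta were thus lower at 72 h while Traf1 and Tnfaip3 were higher. Since the probe sets of Lta differed, its direction is uncertain. The 72 h signals of Tnf and of the brighter Lta probe set lay below that of the filter (13), so the sizes of these falls are uncertain. At 48 h all 9 ligands were lower with IL-21, with a median of -0.24, where 51.2% of all probe sets were lower. Ltb differed by -0.69 and Lta by -0.71, although the second probe set of Lta had 0.30. In limma 0 of 9 were called, with 1 at an unadjusted p under 0.05, against 4.39% of all probe sets. In unscaled values, where the median of all probe sets was 0.57, 5 of the 9 were higher. After centring on control transcripts, where the median of all probe sets was -0.43, Ltb (-1.07, adjusted p = 0.0367) and Lta (-1.17, adjusted p = 0.0416) were called lower with IL-21. Of the 7453 tested probe sets 42 were called lower in that fit. The ligands of CD27, 4-1BB, OX40 and Fas, picked for that pairing after their values were seen, were dim. Cd70 had 11.1 at 72 h, 35.3 and 12.2 at 48 h with IL-21, and 22.9 and 21.9 without it. Tnfsf9, the ligand of 4-1BB, had 26.7, then 13.5 and 35.6, then 39.0 and 29.4 in the same groups. Tnfsf4, the ligand of OX40, and Fasl lay below the filter.

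Of the other TNF receptors, 4 of 9 on the array passed the filter and 0 were called in either comparison in limma, with 1 and 0 at an unadjusted p under 0.05 at 72 h and at 48 h. Of all tested probe sets 11.2% were called at 72 h, and 27.3% and 4.39% had an unadjusted p under 0.05 at 72 h and at 48 h. With 4 genes the list cannot be set apart from this background. Tnfrsf1a, which encodes TNFR1, had 109 at 72 h, 39.5 and 55.7 at 48 h with IL-21, and 45.7 and 51.1 without it (1.21 at 72 h, SE 0.30, adjusted p = 0.0564), but its second, dimmer probe set had -0.37. It passed after centring on control transcripts (1.47, adjusted p = 0.00505 in limma). Tnfrsf8, which encodes CD30, differed by 0.84 (SE 0.69), Tnfrsf11a, which encodes RANK, by -0.17 (SE 0.39), and Ltbr, the lymphotoxin beta receptor, by 0.14 (SE 0.38) at 72 h.

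Among 26 adaptors, kinases and ubiquitin enzymes, all past the filter, 1 was called higher, 1 lower and 24 were not called at 72 h. Of all tested probe sets 4.04% were called higher and 7.12% lower. The median over the 26 genes was 0.08. In unscaled values none was called higher and 8 were called lower, with a median of -0.61 where that of all probe sets was -0.58. Of the 7453 tested probe sets, 101 were called higher and 2027 lower in unscaled values. Trafd1, a TRAF-type zinc finger protein that limits innate signalling, rose by 1.54 (SE 0.23, adjusted p = 0.0169 in limma), with 0.32 for its second probe set. Traf4 fell by 0.76 (SE 0.18, adjusted p = 0.0496), with -0.53 for its second probe set, but did not pass with arrays centred on their medians (-1.10) or on control transcripts (-0.61). Trafd1 did not pass in unscaled values (0.84). Ube2n, the ubiquitin-conjugating enzyme Ubc13, differed by -0.69 (SE 0.19, adjusted p = 0.0694) and passed in unscaled values (-1.41, adjusted p = 0.00249). At 48 h Ube2v1, its partner, differed by 0.52 and Traf4 by -0.38. In limma 0 of 26 were called at 48 h, with 2 at an unadjusted p under 0.05, against 4.39% of all probe sets.

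NF-kappaB factors and their regulators gave 0 calls among 12 genes at 72 h in limma, with 2 at an unadjusted p under 0.05 and a median of -0.00. Of all tested probe sets 11.2% were called and 27.3% had an unadjusted p under 0.05. With 12 genes the list cannot be set apart from this background. Nfkb2, the precursor of p52, had 80.4 at 72 h, 182 and 135 at 48 h with IL-21, and 200 and 142 without it (-0.96, SE 0.30, adjusted p = 0.101). Ikbke, an IKK-related kinase, differed by 1.71 (SE 0.54, adjusted p = 0.105) and Bcl10, an adaptor of antigen receptor signalling, by 0.60 (SE 0.26). In unscaled values 3 of the 12 were called lower, Nfkb2 among them (-1.58, adjusted p = 0.00868 in limma), and with arrays centred on their medians Nfkb2 alone was (-1.17, adjusted p = 0.049). After centring on control transcripts 2 were called higher, Ikbke among them (adjusted p = 0.000222). Of the 7453 tested probe sets, 2027 were called lower in unscaled values and 552 with arrays centred on their medians. After centring on control transcripts 667 were called higher. At 48 h 11 of the 12 were lower with IL-21, with a median of -0.16, where 51.2% of all probe sets were lower. Relb (-0.27) and Ikbkg (-0.32) were among them, although the second probe set of Ikbkg had 0.14. In unscaled values all 12 were higher, with a median of 0.41 where that of all probe sets was 0.57. None of the 12 was called at 48 h in limma, with 0 at an unadjusted p under 0.05, against 4.39% of all probe sets.

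In the death receptor pathway 0 of 13 genes were called at 72 h in limma, with 2 at an unadjusted p under 0.05 and a median of -0.15. Of all tested probe sets 11.2% were called and 27.3% had an unadjusted p under 0.05. With 13 genes the list cannot be set apart from this background. Bid, which links caspase-8 to mitochondria, had 16.1 at 72 h against 61.7 and 37.2 at 48 h with IL-21 (-1.58, SE 0.40, adjusted p = 0.0574), while Apaf1, the scaffold of caspase-9 activation, differed by 0.93 (SE 0.31) and Cycs, cytochrome c, by -0.51 (SE 0.24). In unscaled values 3 of the 13 were called lower, Bid among them (-2.01, adjusted p = 0.0116 in limma), and with arrays centred on their medians Bid alone was (-1.60, adjusted p = 0.0339). After centring on control transcripts Apaf1 alone was called higher (1.16, adjusted p = 0.0298). Of the 7453 tested probe sets, 2027 were called lower in unscaled values and 552 with arrays centred on their medians. After centring on control transcripts 667 were called higher. Of 22 known NF-kappaB target genes of lymphocytes, 2 were called higher, 5 lower and 15 were not called at 72 h, with a median of -0.74, where 4.04% of all probe sets were called higher and 7.12% lower. An unadjusted p under 0.05 in limma was reached at 72 h by 12 of the 22, against 27.3% of all probe sets. The balance of higher and lower calls among the 22 moved with the scaling. It was 1 higher and 10 lower in unscaled values, 1 and 6 with arrays centred on their medians, and 3 and 3 after centring on control transcripts. The medians were -1.29, -0.88 and -0.38. Over the 7453 tested probe sets the calls were 101 higher and 2027 lower, 122 and 552, and 667 and 238 in the same 3 scalings. Irf4, a transcription factor of activated T cells, fell by 2.48 (SE 0.12, adjusted p = 0.00678 in limma), and Sod2, the mitochondrial superoxide dismutase, fell by 1.44 (SE 0.24, adjusted p = 0.0218). Ccr7, the lymph node homing receptor, rose by 1.20 (SE 0.19, adjusted p = 0.0187 in limma), but did not pass in unscaled values (0.50) or with arrays centred on their medians (0.91), and Sod2 did not pass after centring on control transcripts (-1.03). Known target genes of NF-kappaB, Traf1 and Tnfaip3 included, therefore had differences of both signs. At 48 h 0 of the 22 were called in limma, with 2 at an unadjusted p under 0.05, Ccnd2 (0.72) and Ccr7 (-0.41), against 4.39% of all probe sets.

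**Figure D3:**
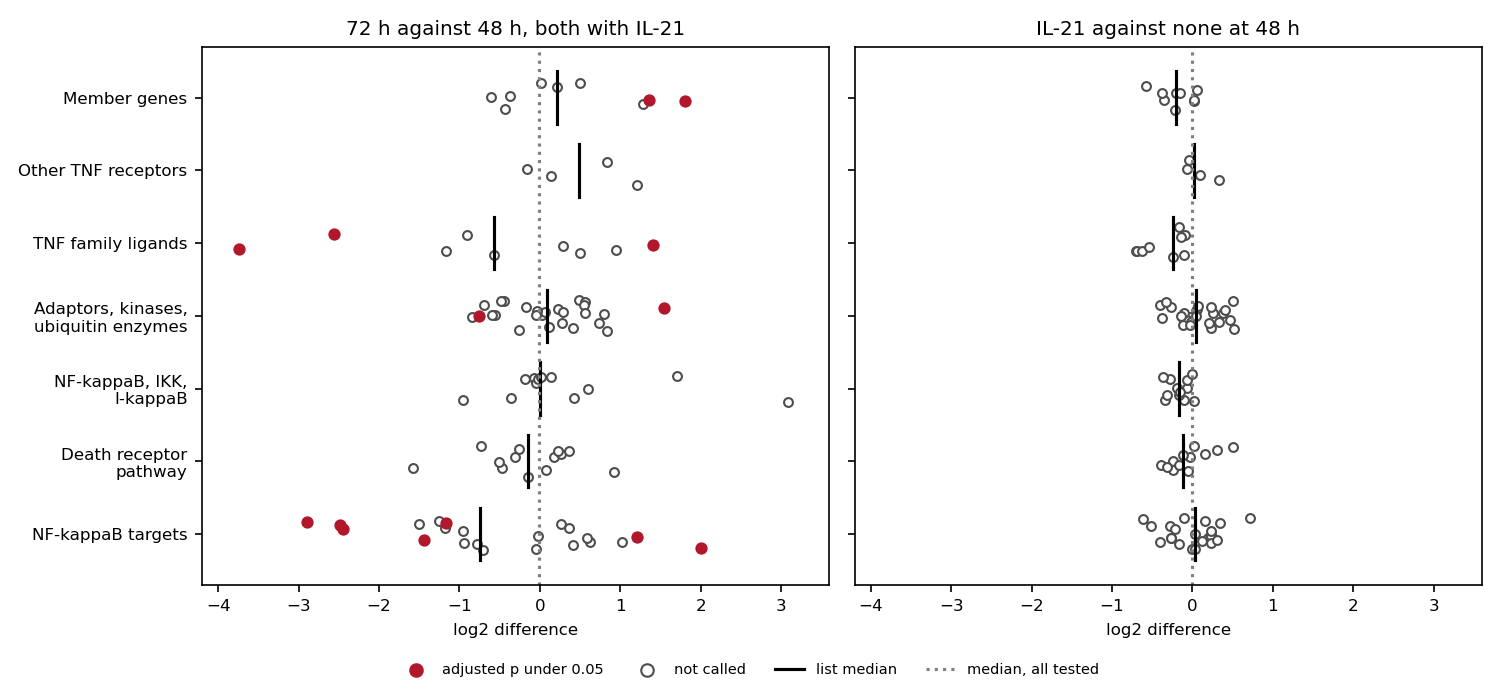
Log2 difference of the genes past the filter in the member set and in 6 pathway lists, at the left for 72 h against 48 h with IL-21 and at the right for IL-21 against none at 48 h, with black bars for the list medians and a dotted line for the median of all tested probe sets. Red points passed at an adjusted p under 0.05, and none did at 48 h, where the 9 ligands all lie below 0, although 5 of them lie above 0 in unscaled values.

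The calls for Traf1 and Tnfaip3 depended on the arrays and on the model. When the 48 h IL-21 replicate 1 or replicate 2 was left out, no probe set of the array passed, so those fits cannot test the 2 calls. The differences then stayed between 1.32 and 1.39 and between 1.54 and 2.06. Without an array that lacked IL-21, which enters the normalisation and the estimate of spread, Traf1 passed and Tnfaip3 had an adjusted p of 0.0512 or 0.0534. Neither passed in limma with no filter (0.0688 and 0.0503) or in the unscaled values (0.15 and 0.0629). Traf1 did not pass with arrays centred on their medians (0.0994). With no variance trend no probe set of the array passed, these 2 included (0.1 and 0.0636). Both differences were positive under all alternatives in which they were measured, between 0.64 and 1.55 for Traf1 and between 1.24 and 2.14 for Tnfaip3. Of all calls at 72 h 36.2% were higher (301 higher and 531 lower), but this was 18.1% (122 and 552) with centred arrays, 4.75% (101 and 2027) in unscaled values and 73.7% (667 and 238) after centring on control transcripts. In these 3 scalings the median of all probe sets lay at -0.17, -0.58 and 0.33, and Tnfrsf9, Tnfrsf1b and Traf2 had negative differences in unscaled values.

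**Figure D4:**
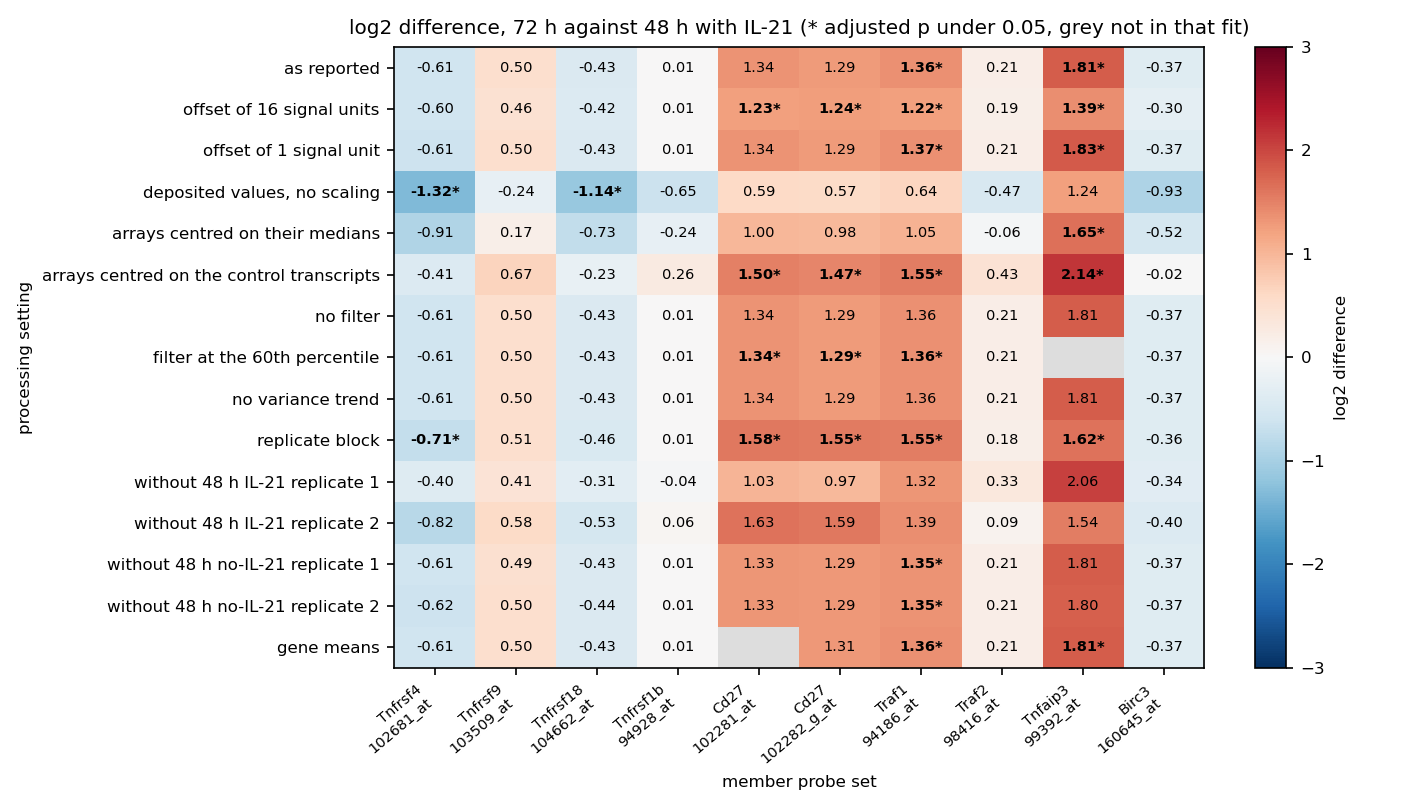
Log2 difference of each member probe set at 72 h against 48 h with IL-21 under each processing setting, with the colour giving the difference, asterisks an adjusted p under 0.05 in limma and grey cells a probe set that has no value of its own in that fit. Traf1, Tnfaip3 and Cd27 were positive and Tnfrsf4, Tnfrsf18 and Birc3 negative in every setting shown.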

How the data were processed

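RNA of 5 samples (10 µg each) was labelled with biotin and hybridised to a mouse array of 12488 probe sets. The authors deposited 1 intensity for each probe set, on a linear scale, and the submitters' processing notes name MAS5 as the tool. The sources used here give neither its version nor its scaling target. The files name no genome build, so probe sets are given no coordinates, and promoter coordinates are those of the RefSeq table (GRCm38.p6). Names came from a platform table, updated through Entrez identifiers to GRCm38.p6 symbols, with 10817 of the 10833 probe sets of 1 gene matched; 396 with several genes and 1193 without one were left unnamed. An offset (10th percentile, 1.53) was added, log2 values were quantile-normalised over the 12422 probe sets that were not controls, and the 7453 above the 40th percentile of mean log2 value were tested. The control probe set of Fas was placed on the normalised scale by interpolation. Tests used limma 3.58.1 (R 4.3.3) with 3 group means over 5 arrays (2 residual degrees of freedom), a variance trend, two-sided p-values and the Benjamini-Hochberg adjustment across the 7453. Genes were represented in counts by their brightest probe set. The rule for named genes took all member probe sets and, from each list, the 3 genes with the smallest p at 72 h and the 2 at 48 h. Members, lists, normalisation and tests were chosen with earlier results of these data known. Alternatives changed the offset, scaling, filter, variance trend and replicate block, averaged probe sets by gene, and left out each 48 h array. The number of arrays limits the precision.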

Additional observations from a re-analysis of the deposited data

How the results depend on the processing

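Groups of fewer than 3 arrays limit all values, and signals near the filter limit those of Fas, the dim probe set of Tnfrsf9, and Tnf and Lta at 72 h. At 48 h, 0 probe sets were called, but 696 were in unscaled values, 44 after centring on the control transcripts and 11 with the replicate block. At 72 h, 832 were called, against 2128 in unscaled values, 1860 with the replicate block, 0 with no variance trend and 0 to 465 when a 48 h array was left out. Member genes called at 72 h numbered 2, against 4 with the replicate block (Cd27 and Tnfrsf4 added), 1 with arrays centred on their medians, 0 with no filter, 0 with no variance trend and 0 to 1 with an array left out. In unscaled values they were also 2, but these were Tnfrsf4 and Tnfrsf18, both lower. The 2 replicate numbers are tied to no shared mouse or day in the labels, and deviations of same-numbered 48 h arrays correlated at 0.36 across probe sets. No member was called at 48 h under any alternative. At 48 h the sign turned in unscaled values for Cd27 102281_at (0.40), Tnfrsf4 (0.25), Tnfrsf9 (0.35), Tnfrsf18 (0.22), Birc3 (0.41) and Traf1 (0.37), after centring on control transcripts for Cd27 102282_g_at (-0.37), Tnfrsf1b (-0.41) and Traf2 (-0.41), and for Cd27 as the mean of its probe sets (-0.067). At 72 h it turned in unscaled values for Tnfrsf9 (-0.24), Tnfrsf1b (-0.65) and Traf2 (-0.47), and with arrays centred on their medians for Tnfrsf1b (-0.24) and Traf2 (-0.064). With each array left out, differences at 48 h lay between -0.49 and 0.13 for Cd27 102281_at, -0.26 and 0.37 for 102282_g_at, -0.037 and 0.067 for Tnfrsf1b, -0.52 and 0.12 for Traf1, and -0.10 and 0.13 for Traf2, and at 72 h between -0.043 and 0.061 for Tnfrsf1b. The causes of these changes were not tested.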

Other observations

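Bcl3, a nuclear I-kappaB protein that binds p50 and p52, was picked out after its values were seen. It had a signal of 310 at 72 h, 9.86 and 135 at 48 h with IL-21, and 10.2 and 131 at 48 h without IL-21, so the second replicate of either group was over 10-fold brighter than the first. The 72 h array carries the number 1. Its difference at 72 h was 3.09 with an SE of 1.88 (adjusted p = 0.355 in limma), and for IL-21 at 48 h it was -0.00. Klrc1, an NK-type receptor gene, also differed between replicates, with 253 at 72 h, 22.1 and 83.8 at 48 h with IL-21, and 25.6 and 42.0 without it. The cause of these differences between replicate numbers was not tested.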
